A study of Mus musculus with 3 samples.

Results

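The 40 genes described here belong to the Toll-like receptor and NF-kB pathway, and the question is where RXRA peaks lay at them in mouse blood stem and progenitor cells. They are a fixed list of protein-coding genes, 40 of the 21900 protein-coding genes in the RefSeq table used here, and all 40 were found by symbol. RXRA is the retinoid X receptor alpha, a nuclear receptor that binds DNA mostly together with a partner receptor. It was mapped by CUT&RUN, in which an antibody tethers a nuclease to its target and the DNA released by the cut is sequenced. The stem cell library, called HSC here, was made from 10000 haematopoietic stem cells (Lin-, cKit+, Sca1+, CD48-, CD150+), and each of the 2 MPP libraries from 50000 multipotent progenitors (Lin-, cKit+, Sca1+, CD150-), called progenitor replicate 1 and 2 in the text and MPP replicate 1 and 2 in the figures. All cells came from bone marrow of C57BL/6 mice of about 10 months, pooled from 3 or 4 animals. Per the labels the genotype is VavCre+ and wild type, the growth protocol names the mice Rxrabfl/fl (WT), and all cells were exposed to bexarotene, an RXR agonist, at 1 mM for 1 h. The drug is thus common to all 3 libraries, and no library without it or with a control antibody was used here.

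Toll-like receptors sense microbial molecules and, with the receptors for interleukin-1 and TNF, pass the signal through adaptors such as MYD88 and TRIF to IRAK kinases, TRAF ubiquitin ligases and the kinase TAK1. TAK1 activates the IKK kinases, which mark the IkB inhibitors for destruction and so free NF-kB dimers to enter the nucleus. NF-kB then induces cytokine genes and also its own inhibitors, a feedback that ends the response. In blood stem and progenitor cells this pathway links infection to the output of myeloid cells.

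The libraries held 4047 peaks in HSC, 29848 in progenitor replicate 1 and 19570 in progenitor replicate 2. The authors' fold enrichment is a ratio of fragment pileup to local background at the summit, and it ranks peaks within a library but is not on 1 scale across libraries. The genome-wide background recovered from the lists was 0.604 fragments in HSC, 2.87 in progenitor replicate 1 and 1.08 in progenitor replicate 2. The weakest pileup called a peak stood 8.28, 3.48 and 5.55 times above that background, so a site had to be stronger to be listed in HSC. With a single HSC library no difference between the cell types can be tested, no p-value is given, and a missing HSC peak is not evidence that RXRA was absent. The peak names give HSC and progenitor replicate 1 a shared tag that progenitor replicate 2 lacks, and the part of this in any difference between libraries was not tested.

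The starts of 33 members are listed in the RefSeq promoter table (GRCm38.p6, the same assembly as mm10), and all coordinates given are of that build. Peaks lay at a listed start in all 3 libraries for 4 of them, Ticam1, Birc3, Nfkb2 and Nfkbie, which is 12.1% against 6.01% of all genes with a listed start. Their promoters are shown because each library had a peak within 1 kb of a start there, though not always over the bases shown, with that of Tlr1, which had no peak at any listed start, for contrast. Each line is the 250 bases before the start, 5′ to 3′ on the strand of the gene, read from RefSeq. Capitals mark matches to the NF-kB consensus site, the E-box CACGTG or the ETS core CCGGAAG.
Ticam1: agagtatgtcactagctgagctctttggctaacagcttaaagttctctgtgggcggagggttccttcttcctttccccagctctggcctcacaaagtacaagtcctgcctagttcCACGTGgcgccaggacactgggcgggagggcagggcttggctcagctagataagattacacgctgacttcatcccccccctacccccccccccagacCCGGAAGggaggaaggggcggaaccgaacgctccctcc
Birc3: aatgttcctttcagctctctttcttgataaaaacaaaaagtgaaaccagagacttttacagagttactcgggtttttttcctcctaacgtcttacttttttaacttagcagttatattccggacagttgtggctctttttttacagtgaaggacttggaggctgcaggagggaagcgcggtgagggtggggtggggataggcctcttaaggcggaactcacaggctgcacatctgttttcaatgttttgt
Nfkb2: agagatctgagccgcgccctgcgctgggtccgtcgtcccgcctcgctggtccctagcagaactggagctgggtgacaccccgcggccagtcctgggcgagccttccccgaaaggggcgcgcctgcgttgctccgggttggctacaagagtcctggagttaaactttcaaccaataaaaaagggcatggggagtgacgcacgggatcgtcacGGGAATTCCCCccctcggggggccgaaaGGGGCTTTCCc
Nfkbie: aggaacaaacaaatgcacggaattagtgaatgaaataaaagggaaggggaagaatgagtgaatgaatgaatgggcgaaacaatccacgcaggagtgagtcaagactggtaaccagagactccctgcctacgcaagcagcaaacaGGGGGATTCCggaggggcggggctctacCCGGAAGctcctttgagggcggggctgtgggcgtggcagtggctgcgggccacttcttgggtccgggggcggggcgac
Tlr1: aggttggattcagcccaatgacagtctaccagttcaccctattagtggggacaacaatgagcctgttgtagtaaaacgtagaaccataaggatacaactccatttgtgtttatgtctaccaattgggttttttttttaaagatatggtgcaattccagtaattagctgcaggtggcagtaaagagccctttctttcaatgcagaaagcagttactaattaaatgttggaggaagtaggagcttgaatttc
The stretches are chr17:56276768-56277017 (minus strand), chr9:7873171-7873420 (minus), chr19:46304487-46304736 (plus), chr17:45555450-45555699 (plus) and chr5:64933559-64933808 (minus). In Ticam1 the HSC peak covered 248 of the 250 bases and both MPP peaks covered all 250. In Nfkbie the peaks covered 218, 220 and 242 bases in HSC, progenitor replicate 1 and progenitor replicate 2. In Nfkb2 they covered 133, 0 and 250 bases, and in Birc3 0, 33 and 94, because its peaks lay mostly just inside the gene. The Nfkb2 stretch holds a palindromic NF-kB match from 39 to 30 bases before the start (GGGAATTCCC), which continues into an overlapping match on the other strand, and a further one from 11 to 2 bases before it (GGGGCTTTCC). The Nfkbie stretch holds 1 NF-kB match (GGGGGATTCC) and 1 ETS core, and the Ticam1 stretch 1 E-box and 1 ETS core. The stretches of Birc3 and Tlr1 hold no match to any of the 7 motifs searched. Over all its listed starts, Tlr1 has an E-box and an ETS core outside the stretch shown.

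RXRA peaks were found at the ends of most pathway genes in progenitors and of a few in stem cells. A peak within 1 kb of either end of the gene was present for 6 of the 40 members in HSC (15%), 28 in progenitor replicate 1 (70%) and 27 in progenitor replicate 2 (67.5%). Over all 21900 protein-coding genes the share was 8.21%, 41.2% and 36%. Ticam1, Birc3, Relb and Nfkbie were marked at an end in all 3 libraries, 10% of members against 5.83% of all genes. In both progenitor libraries 22 members were marked, 55% against 28.9% of all genes. Of these, 18 were marked in both progenitor libraries and not in HSC, 45% of members against 23.1% of all genes. Every HSC-marked member was also marked in progenitor replicate 2, where Traf2 and Nfkbib joined the 4 (5% of members against 1.74% of all genes), and none was marked in HSC alone. This overlap is not particular to the members. Over all genes 8.21% were marked in HSC and 7.57% in HSC and progenitor replicate 2 together. Marks in 1 progenitor replicate alone numbered 6 in replicate 1 (15% against 12%) and 3 in replicate 2 (7.5% against 5.32%). Only 7 members had no gene-end peak in any library (17.5% against 51.4% of all genes), namely Tlr1, Tlr3, Tlr7, Il1r1, Traf3, Nfkb2 and Il1b. With each progenitor list held to the 4047 peaks of highest fold, the length of the HSC list, 6 and 7 members were marked in progenitor replicates 1 and 2 (15% and 17.5%), against 8.83% and 10.1% of all genes. With peaks of q at or below 1e-05 the counts were 3 in HSC and 18 and 17 in the progenitor replicates (7.5, 45 and 42.5%), against 2%, 27.4% and 25.9% of all genes. These shares are descriptions of 3 libraries, and the members were proposed with earlier results of these data known.

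**Figure D1:**
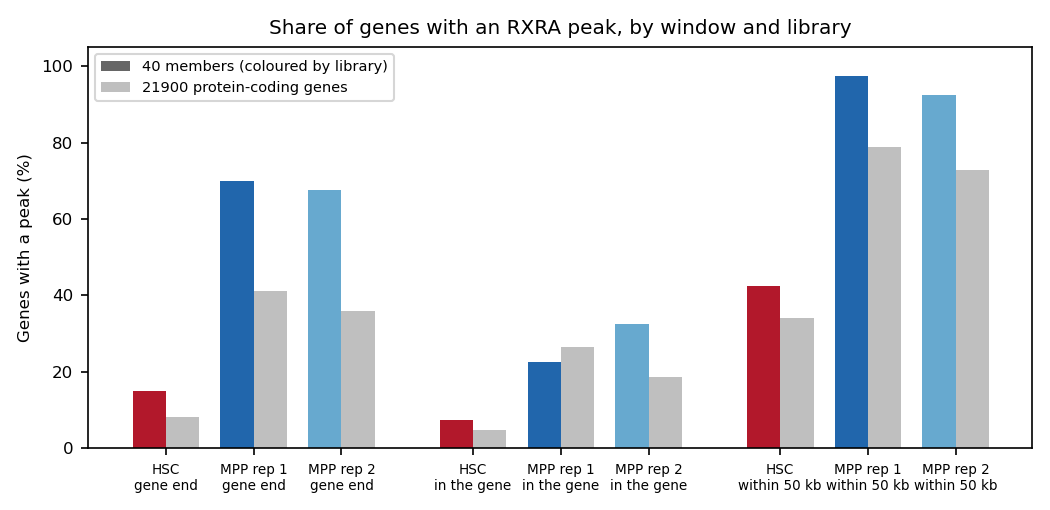
Percent of genes with at least 1 RXRA peak (y axis) by window and library (x axis), for the 40 members (coloured bars, 1 colour per library) and all 21900 protein-coding genes (grey bars). At gene ends the members stand at 15, 70 and 67.5% against 8.21, 41.2 and 36%, and elsewhere in the gene progenitor replicate 1 is the one library where the members lie below all genes.

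The peaks at gene ends were of ordinary strength for their libraries. The strongest gene-end peak of a marked member had a median fold of 6.29 in HSC (range 4.39 to 7.57), 5.15 in progenitor replicate 1 (3.30 to 9.15) and 5.93 in progenitor replicate 2 (4.07 to 10.4). Over all marked genes the medians were 5.50, 4.86 and 6.14. None of the member peaks at gene ends belonged to the 1% of peaks of highest fold, since removing that 1% changed no member's call. The folds of the 22 members marked in both progenitor libraries were only loosely related across genes (Pearson r 0.26, Spearman rho 0.14), compared with 0.53 and 0.44 over the 6327 genes marked in both. With 22 genes the members' values are imprecise, and whether they differ from those over all genes was not tested. The points are the strongest gene-end peak of a gene in each library, which for Rel were different sites, and genes are not independent replicates.

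**Figure D2:**
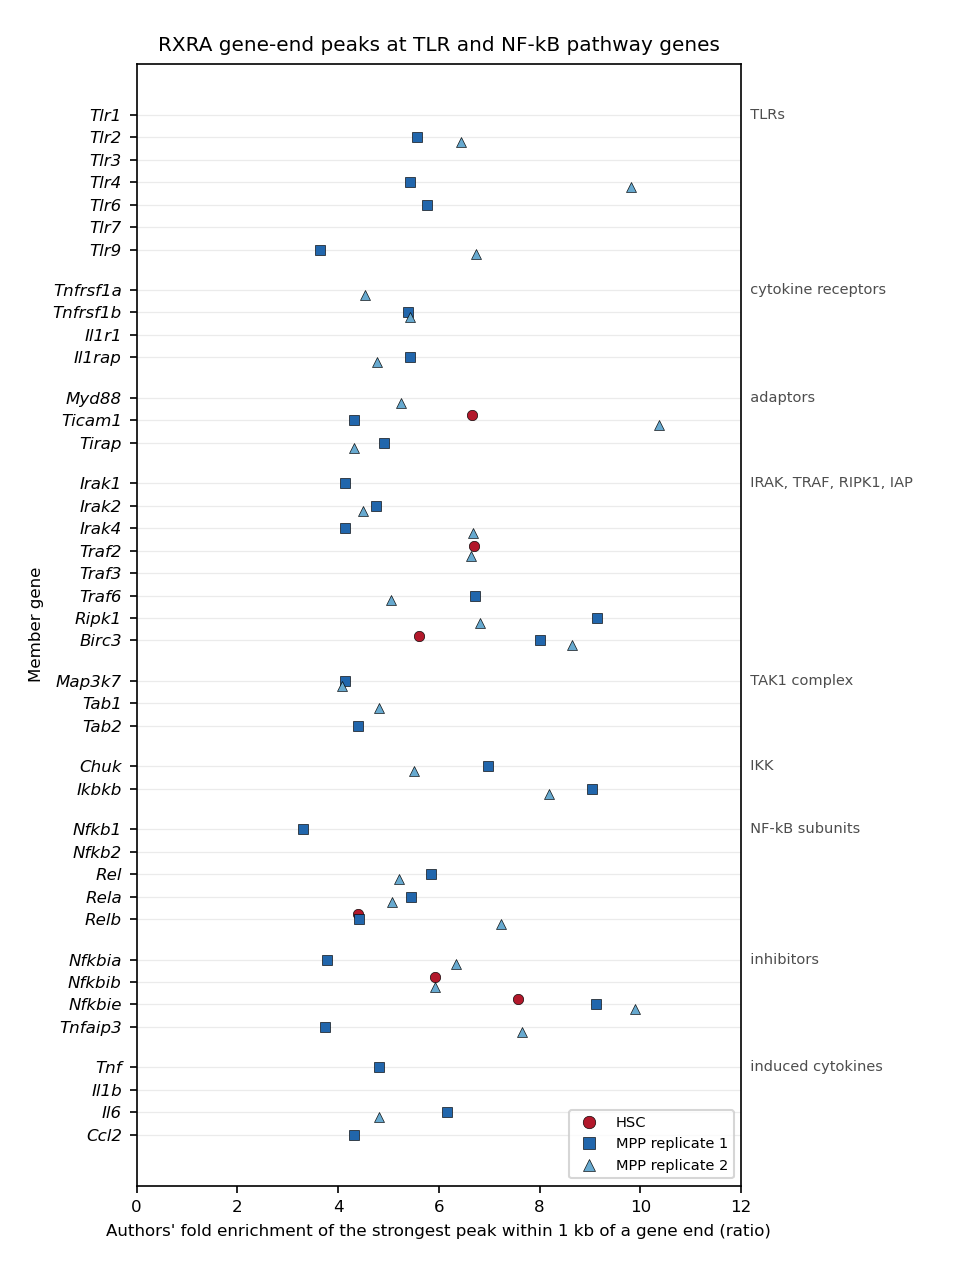
Authors' fold enrichment (x axis, ratio) of the strongest peak within 1 kb of a gene end for each of the 40 members (y axis, by role), with circles for HSC, squares for progenitor replicate 1 and triangles for progenitor replicate 2; no symbol means no peak there. Circles appear at 6 genes, Ticam1, Traf2, Birc3, Relb, Nfkbib and Nfkbie (15% of members against 8.21% of all genes), too few to set a role apart. Folds are comparable only within a library.

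No Toll-like receptor gene had a gene-end peak in HSC, and 4 of 7 had one in progenitor replicate 1 and 3 in progenitor replicate 2. Over all genes the shares were 8.21%, 41.2% and 36%. Counts in groups of this size, here and in the roles below, cannot set a role apart. Tlr2, a receptor for bacterial lipoproteins on chromosome 3 (83836272 to 83841824), had a fold of 5.57 in progenitor replicate 1 and 6.43 in progenitor replicate 2. The summits lay 92 bases after and 8 bases before its start. Tlr4, the lipopolysaccharide receptor on chromosome 4 (66827551 to 66846581), had a fold of 5.43 in progenitor replicate 1, where 20 fragments piled up at the summit (12.2 to 30.9, the 95% interval of an exact Poisson count, as for all pileups here). In progenitor replicate 2 its fold was 9.81, with a pileup of 22 (13.8 to 33.3), higher than 95.9% of the peaks of that library. The peak covered the lower-coordinate end of Tlr4, and apart from it no peak lay within 50 kb of the gene in any library.

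Tlr9, an endosomal receptor for unmethylated CpG DNA on chromosome 9 (106222598 to 106226876), was marked close to its start in both progenitor libraries. Its folds were 3.65 and 6.74, with summits 138 and 128 bases before the start. Tlr9 also lies among many other peaks, with 9 and 6 more within 50 kb in the 2 MPP libraries, some of them at its neighbours Ppm1m and Twf2. The Tlr6 call in progenitor replicate 1 (fold 5.76) lay 10002 bases before the listed starts, at a peak that also reaches the ends of Fam114a1 and Mir574. In progenitor replicate 2 Tlr6 had no gene-end peak, but a peak of fold 4.24 lay 953 bases before a listed start. Tlr7, the receptor for single-stranded RNA on the X chromosome, was the 1 member with no peak within 50 kb in any library, as were 18.7% of all genes. Tlr1 and Tlr3, partner of Tlr2 and receptor for double-stranded RNA, had none in HSC and no more than 2 in an MPP library.

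Of the 4 receptor genes for TNF and interleukin-1, 2 were marked at an end in progenitor replicate 1, 3 in progenitor replicate 2 and none in HSC. The shares of all genes were 41.2%, 36% and 8.21%. Tnfrsf1b, which encodes TNF receptor 2, lies on chromosome 4 (145212368 to 145246870, minus strand) and was marked at its start with folds of 5.38 and 5.43 in progenitor replicates 1 and 2. It also carried a peak just past its other end in both, with folds of 4.63 and 5.01. In HSC its start had no peak, but a peak inside the gene, 5925 bases past the start, had a fold of 5.86 and a pileup of 10 (4.80 to 18.4). Both MPP libraries had a peak at this internal site, with folds of 3.90 and 6.00, so the internal site and not the promoter was the one seen in all 3 libraries. Another HSC peak inside the gene, of fold 3.63 and a pileup of 5, the lowest called in that library, overlapped no peak of the progenitor libraries. Tnfrsf1a, TNF receptor 1, was marked in progenitor replicate 2 alone, with a fold of 4.54 and a summit 2 bases before the start.

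Il1rap, the accessory chain of the interleukin-1 receptor, was marked at its start in both progenitor libraries, with folds of 5.43 and 4.78. Il1r1, the receptor's signalling chain, counts as unmarked because its listed starts lie 2600 and 44106 bases inside the gene's span. At the first of these starts both progenitor libraries had a peak, with folds of 5.43 and 5.97 and summits 157 and 118 bases before it. Neither interleukin-1 receptor gene had a peak within 50 kb in HSC.

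Of the adaptors, Ticam1 was marked in all 3 libraries. Ticam1 encodes TRIF, which serves TLR3 and TLR4, and lies on chromosome 17 (56269462 to 56276767, minus strand). Its HSC peak, from 56276770 to 56277076, had a fold of 6.65 and a pileup of 10 (4.80 to 18.4). In progenitor replicate 1 the fold was 4.32 with a pileup of 17 (9.90 to 27.2), and in progenitor replicate 2 it was 10.4 with a pileup of 28 (18.6 to 40.5). The 3 summits fell 74, 58 and 53 bases before the start, and the peaks overlapped one another. The Ticam1 peak stood above 80.8% of the HSC list, 45.8% of that of replicate 1 and 97.2% of that of replicate 2, so the MPP libraries placed it very differently.

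Tirap, the bridging adaptor for TLR2 and TLR4, was marked in both progenitor libraries with folds of 4.91 and 4.32. Myd88, the adaptor of most Toll-like receptors and of the interleukin-1 receptor, shows how a call can turn on the window. It lies on chromosome 9 (119335934 to 119340018, minus strand), and a progenitor replicate 2 peak of fold 5.26 reaches its window although the summit is 1061 bases before the start. The HSC peak at the same place, fold 5.69 with its summit 1128 bases outside the gene, falls just beyond the window and is not counted. Both of these peaks also lie at an end of Acaa1a, a peroxisomal thiolase gene. At the other side of Myd88, 1489 and 1467 bases past the gene, progenitor replicates 1 and 2 had a peak of fold 10.7 and 7.41. The first of these is the strongest peak outside a gene, but within 50 kb of a member, in progenitor replicate 1, and it too lies outside the 1 kb window.

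Among the kinases and ubiquitin ligases between receptor and TAK1, 2 of 8 were marked in HSC and 6 in each MPP library. For all genes the shares were 8.21% in HSC and 41.2% and 36% in progenitor replicates 1 and 2. Birc3 encodes cIAP2, a ubiquitin ligase of TNF receptor signalling that is itself a known NF-kB target, and it lies on chromosome 9 (7847468 to 7873205, minus strand). Its fold was 5.61 in HSC with a pileup of 8 (3.45 to 15.8), 8.01 in progenitor replicate 1 with 30 (20.2 to 42.8), and 8.64 in progenitor replicate 2 with 22 (13.8 to 33.3). The summits lay inside the gene, 493, 213 and 162 bases past the start, and the peaks overlapped one another. In both progenitor libraries Birc3 was among the strong peaks, above 96.7% and 91.1% of the list, whereas in HSC it stood above 53.6%.

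Traf2, a ubiquitin ligase adaptor of TNF receptors, was marked at its start in HSC (fold 6.70, pileup 11) and progenitor replicate 2 (fold 6.63, pileup 16) with summits 5 bases after and 26 bases before it. Progenitor replicate 1, the library with the highest recovered background and the most peaks, had no peak there. Ripk1, the kinase that decides between NF-kB signalling and cell death downstream of TNF receptor 1, had a fold of 9.15 in progenitor replicate 1 and 6.83 in progenitor replicate 2 at its second listed start. The progenitor replicate 1 peak held 36 fragments (25.2 to 49.8) and stood above 98.6% of its list. Its window also reaches an end of the neighbouring gene Serpinb6a. Traf6, the ligase that joins IRAK kinases to TAK1, had folds of 6.72 and 5.06 in the MPP libraries and no HSC peak within 50 kb.

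Irak4, the first kinase recruited by MYD88, shares its start peak (folds 4.13 and 6.68 in the MPP libraries) with Pus7l. Irak1 was marked in progenitor replicate 1 alone, with a fold of 4.13. Traf3, which restrains the alternative NF-kB pathway, had no gene-end peak in any library. About 6 kb from Traf3, before its start, all 3 libraries had a peak, with folds of 4.51 in HSC, 5.43 in progenitor replicate 1 and 6.51 in progenitor replicate 2, and distances of 6225, 6181 and 6147 bases from the gene.

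Irak2 held the most internal peaks of the members in both progenitor libraries. This kinase prolongs signalling after IRAK1, and its gene spans chromosome 6 from 113638467 to 113695026. Besides a start peak of fold 4.75 and 4.50, it had 7 internal peaks in progenitor replicate 1 and 6 in progenitor replicate 2. An internal site about 30 kb past the start was the strongest, at a fold of 8.27 with a pileup of 32 (21.9 to 45.2) in progenitor replicate 1, and 10.7 and 26 (17.0 to 38.1) in progenitor replicate 2. The same site held the only HSC peak of the gene body (113668694 to 113669000), at a fold of 5.61 and a pileup of 8 (3.45 to 15.8). It stood above 97.3% and 97.9% of the peaks of the MPP libraries, higher than the start peak of the same gene. The table used here gives no exons, so the part of the gene it lies in is not stated.

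**Figure D3:**
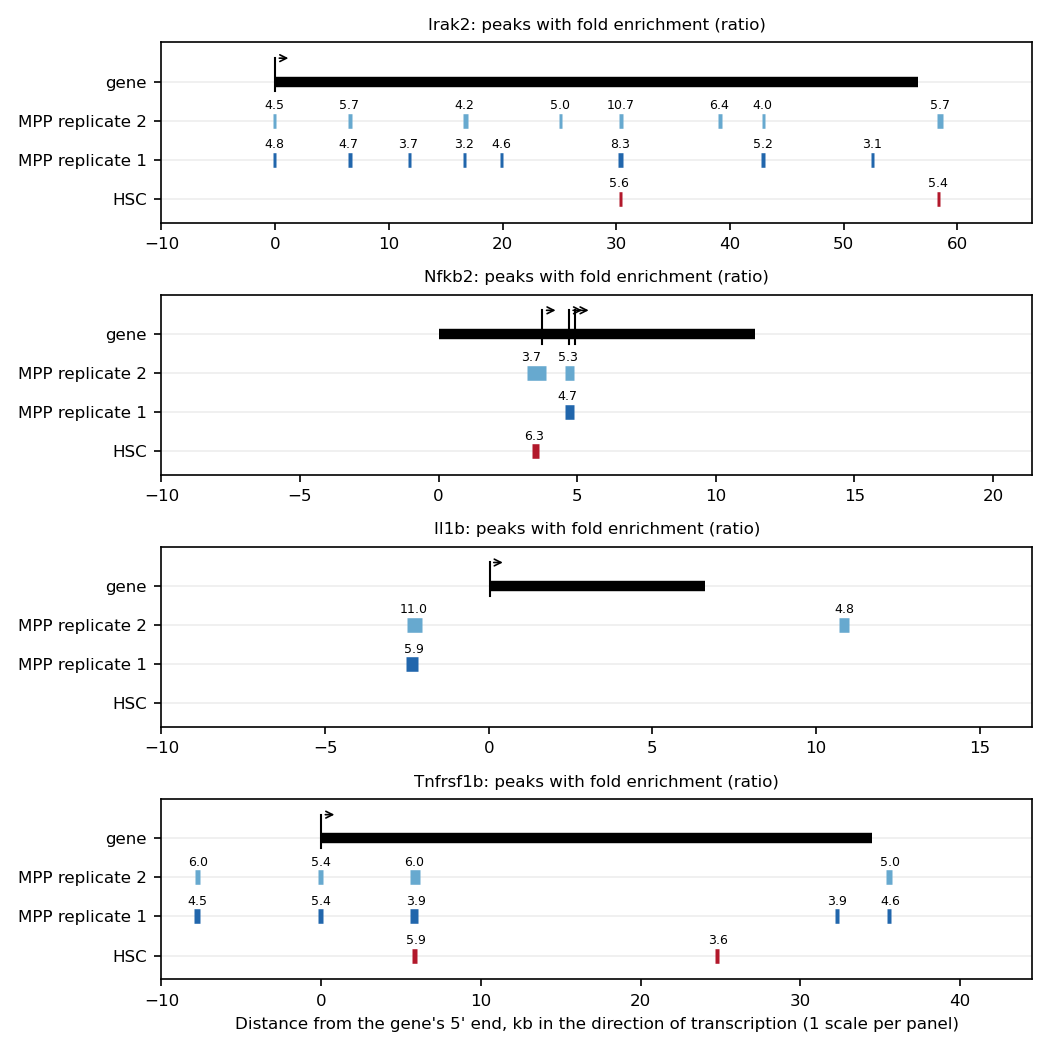
Peaks of the 3 libraries (coloured blocks, with fold enrichment as a ratio above each) along Irak2, Nfkb2, Il1b and Tnfrsf1b (black bars, arrows at the listed starts), against distance from the end of the gene where transcription begins, in kb, with 1 scale per panel. The strongest Irak2 peaks and the only Tnfrsf1b site seen in all 3 libraries lie inside the genes, and the Nfkb2 peaks lie at starts inside the annotated span.

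The TAK1 and IKK kinases had no gene-end peak in HSC, and no HSC peak lay within 50 kb of any of these 5 genes. Over all genes 8.21% had an HSC gene-end peak and 34% an HSC peak within 50 kb, so absence from 5 genes sets neither group apart. Ikbkb, which encodes the main kinase of the IkB inhibitors, carried the strongest gene-end peaks of the 5 genes, on chromosome 8 (22659205 to 22706589). Its folds were 9.04 in progenitor replicate 1, with a pileup of 34 (23.5 to 47.5), and 8.20 in progenitor replicate 2, with a pileup of 20 (12.2 to 30.9). The peak covered the higher-coordinate end of the gene in both. Chuk, the partner kinase IKK alpha, had folds of 6.98 and 5.51, with summits 25 and 68 bases past its start. Map3k7, TAK1 itself, had folds of 4.13 and 4.07, which stood above 37.8% and 7.38% of the peaks of the respective lists. Its binding partners were each marked in a single MPP library, Tab2 in replicate 1 (fold 4.39) and Tab1 in replicate 2 (fold 4.81).

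Of the 5 NF-kB subunit genes, 1 was marked at an end in HSC, 4 in progenitor replicate 1 and 3 in progenitor replicate 2. The shares of all genes were 8.21%, 41.2% and 36%. Relb, a subunit of the alternative pathway on chromosome 7 (19606217 to 19629438), was the only one with a gene-end peak in HSC. Its fold was 4.39 in HSC with a pileup of 8 (3.45 to 15.8), 4.42 in progenitor replicate 1 with 18 (10.7 to 28.4) and 7.25 in progenitor replicate 2 with 20 (12.2 to 30.9). The HSC peak is weak, standing above 14.1% of its list, and its summit lies 782 bases inside the higher-coordinate end of the gene. With windows of 500 bp Relb lost its HSC call.

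Nfkb2, the p100 precursor that pairs with RELB, was bare of peaks at both ends of its span on chromosome 19 (46300994 to 46312400). Its 3 listed starts lie 3743, 4701 and 4936 bases inside that span, and peaks lay at them in every library. In HSC a peak from 46304348 to 46304619, fold 6.29 with a pileup of 12 (6.20 to 21.0), had its summit 313 bases before the first start. In progenitor replicate 1 the peak lay at the second start, with a fold of 4.73, a pileup of 24 (15.4 to 35.7) and a summit 59 bases before it. Progenitor replicate 2 had a peak at each of these starts, with folds of 3.67 and 5.26. The HSC and progenitor replicate 1 peaks did not overlap each other, and each overlapped a different peak of progenitor replicate 2.

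Rela and Rel, the subunits that activate transcription in the classical pathway, were marked in both progenitor libraries and not in HSC. The site of Rela seen in both was not its start: the peak lay past the gene's finish, with folds of 5.46 and 5.07, and the start had a peak of fold 3.88 in progenitor replicate 1 alone. Rel had a site inside the gene, 1156 and 1238 bases past the start, with folds of 5.84 and 4.35, which reaches the window only by its edge. A second peak at the start itself, fold 5.21, appeared in progenitor replicate 2. Nfkb1, the p105 precursor, was marked at its higher-coordinate end in progenitor replicate 1 alone, with a fold of 3.30, the lowest of the members' calls in that library. That library had 6 further peaks inside Nfkb1, of fold 3.33 to 4.79, and replicate 2 had 1, of fold 3.75, which overlapped one of them. No HSC peak lay within 50 kb of Nfkb1 or Rel.

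Of the 4 inhibitors, all 4 were marked in progenitor replicate 2, 3 in progenitor replicate 1 and 2 in HSC. Among all genes 36%, 41.2% and 8.21% were so marked, and 4 genes are too few to set this role apart. Nfkbie, which encodes IkB epsilon, had the strongest gene-end peak of the members in HSC and lies on chromosome 17 (45555700 to 45563169). Its HSC peak, from 45555482 to 45555767, had a fold of 7.57 and a pileup of 14 (7.65 to 23.5), above 91.0% of the HSC list. In progenitor replicate 1 the fold was 9.13 with a pileup of 54 (40.6 to 70.5), and in progenitor replicate 2 it was 9.90 with 34 (23.5 to 47.5). The summits lay 171, 122 and 126 bases before the start, and the 3 peaks overlapped one another. Nfkbie was high in every list, above 98.6% and 96.2% of the MPP peaks, and was the only member marked in all 3 libraries when peaks were held to q at or below 1e-05.

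Nfkbib, IkB beta, was marked in HSC (fold 5.92, pileup 9) and progenitor replicate 2 (fold 5.93, pileup 15) and not in progenitor replicate 1, and its peak also lies at an end of Sirt2. Nfkbia, the IkB alpha gene that NF-kB induces as feedback, was marked at its start in both progenitor libraries with folds of 3.79 and 6.35. Tnfaip3 encodes A20, a ubiquitin-editing brake on the pathway, and its start peak had a fold of 3.75 in progenitor replicate 1 and 7.65 in progenitor replicate 2. Neither Nfkbia nor Tnfaip3 had an HSC peak within 50 kb. Around Tnfaip3, progenitor replicate 2 had 6 peaks outside the gene within 50 kb and replicate 1 had 3, all of which overlapped a replicate 2 peak.

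Of the 4 induced cytokine genes, 3 were marked in progenitor replicate 1, 1 in progenitor replicate 2 and none in HSC. The shares of all genes were 41.2%, 36% and 8.21%. Il6 was the 1 cytokine gene marked in both, with folds of 6.15 and 4.81 and summits 98 and 106 bases past the start. Tnf had a start peak in progenitor replicate 1 alone (fold 4.82, shared with the end of Lta). Inside the gene, about 1.4 kb from the start, both libraries had a peak, with folds of 5.51 in replicate 1 and 9.16 in replicate 2. Tnf sits in a gene-dense stretch of chromosome 17 (35199367 to 35202007), with 12 and 9 further peaks within 50 kb in the MPP libraries and 2 in HSC, at the ends of Prrc2a and Ddx39b. Ccl2, a monocyte chemokine, was marked in progenitor replicate 1 alone, with a fold of 4.32.

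Il1b had no gene-end peak, yet it carried one of the strongest nearby sites of the list. On chromosome 2 (129364569 to 129371164, minus strand), a peak lay 2286 and 2280 bases before the gene in progenitor replicates 1 and 2. Its fold was 5.94 with a pileup of 22 in replicate 1 and 10.98 with a pileup of 24 in replicate 2. The replicate 2 fold was the highest in that library among peaks outside a member's gene but within 50 kb of it. A further site 26470 and 26435 bases past the other end had folds of 3.62 and 10.3. All 4 replicate 1 peaks near Il1b overlapped a peak of replicate 2, and HSC had no peak within 50 kb of the gene.

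A peak inside the gene away from its ends was present in 3 members in HSC, 9 in progenitor replicate 1 and 13 in progenitor replicate 2 (7.5, 22.5 and 32.5%), against 4.89%, 26.4% and 18.6% of all genes. Long genes have more room for such peaks, so the 8 members of 40 kb or more, a split chosen after the values were seen, were set beside genes of that length. There the members numbered 1, 5 and 6 of 8 (12.5, 62.5 and 75%), against 12.4%, 54.7% and 40.4%. The median length of the members was 18441 bases and that of all genes 17146. Some of the members' internal peaks lay within 1 kb of a start listed inside the span, such as those of Nfkb2 in each library. The Tlr6 peak in progenitor replicate 2, 953 bases before a listed start, was another.

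A peak in the gene, at its ends or within 50 kb was present for 17 members in HSC (42.5% against 34% of all genes), 39 in progenitor replicate 1 (97.5% against 78.8%) and 37 in progenitor replicate 2 (92.5% against 72.7%). The peaks outside the genes and their end windows numbered 16 in HSC, 127 in progenitor replicate 1 and 108 in progenitor replicate 2. Of these, 9, 46 and 44 lay at an end of another protein-coding gene and cannot be assigned to the member. In HSC 15 of the 16 overlapped an MPP peak, the exception lying at Uhrf1, near Ticam1. The share of all HSC peaks with such an overlap is not given here, so the overlap cannot be called particular to these sites. The strongest of these 16 HSC peaks, fold 8.06, lay 40752 bases from Rela at the ends of Map3k11 and Pcnx3.

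Where the start was listed, the summits of most start peaks lay close to it in MPP, for the members as for all genes. The strongest start peak had its summit within 250 bases of the start in 22 of 24 members in progenitor replicate 1 (91.7%) and 22 of 25 in progenitor replicate 2 (88.0%), compared with 78.4% and 82.0% of all genes with such a peak. In HSC it was 3 of 6 members, with 78.7% of all genes, and 6 members are too few to set HSC apart. The 3 HSC exceptions were Nfkb2, Birc3 and Nfkbib, the last at 254 bases. Peaks within 1 kb of a listed start were present in 6, 24 and 25 of the 33 members (18.2, 72.7 and 75.8%), against 8.57%, 42.1% and 38% of the 17492 genes with a listed start. In both progenitor libraries it was 20 members (60.6% against 30.1%). By this measure Nfkb2 and Il1r1 joined the marked members, Tlr6 moved from replicate 1 to replicate 2, and Rela kept its mark in replicate 1 alone. The starts of Tlr4, Tlr7, Tab1, Ikbkb, Nfkb1, Relb and Ccl2 were not analysed here.

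**Figure D4:**
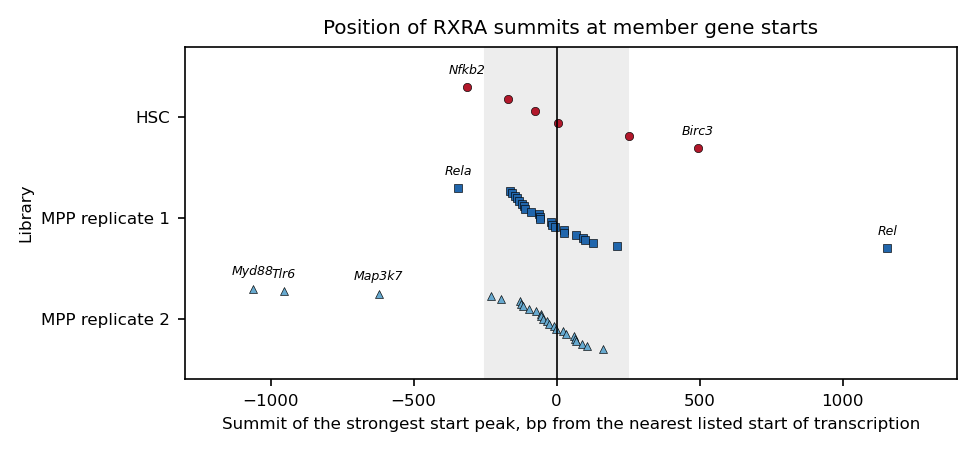
Distance in bases (x axis, negative before the start) from the nearest listed start of transcription to the summit of the strongest start peak, 1 symbol per member, in rows for the 3 libraries (y axis; symbols are spread vertically for legibility). The shaded band spans 250 bases either way, and it holds 3 of 6 HSC, 22 of 24 progenitor replicate 1 and 22 of 25 progenitor replicate 2 symbols.

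The promoters of the members were richer in NF-kB matches than those of all genes and not in nuclear receptor core sites. Over the 300 bases of each listed promoter, on both strands, the NF-kB consensus site was found in 12 of the 33 members (36.4%) and in 10.5% of all genes. Counted per start rather than per gene it was 34.9% of 43 starts against 9.25%. The core AGGTCA, to which RXR and its partners bind in pairs, was found in 4 members (12.1%), Tlr2, Irak2, Tlr9 and Irak4, and in 16.7% of all genes. As direct repeats spaced by 1 base it was found in no member and in 0.0572% of genes, and spaced by 4 bases in no gene of the table.

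The other motifs searched are those of ETS factors, interferon response factors and E-box proteins. The ETS core CCGGAAG was found in 8 members (24.2% against 12.9%), the interferon response core (TTTC repeated after any 2 bases) in 5 (15.2% against 3.94%), and the E-box CACGTG in 3 (9.09% against 8.91%). With a start peak in both progenitor libraries, the ETS core was in 30.0% of the 20 members and 24.3% of all genes, so the gap was smaller there. NF-kB matches were not confined to marked promoters. They were present in 9 of the 20 members with a start peak in both progenitor libraries and in 2 of the 4 without one in any library, Tlr3 and Traf3. Among all genes the shares for the same split were 12.1% and 8.51%. All 4 members with an AGGTCA core were marked at the start in both progenitor libraries, but so were 16 without one. Among all genes AGGTCA was in 14.05% of those with a start peak in both progenitor libraries and in 19.0% of those with none in any library. A match is a run of letters and not a measured site. The members' promoters had a median GC content of 60.0%, against 57.3% for all genes. The 20 marked in both progenitor libraries had a median CpG ratio, observed over expected, of 0.65, whereas all genes so marked had 0.81.

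**Figure D5:**
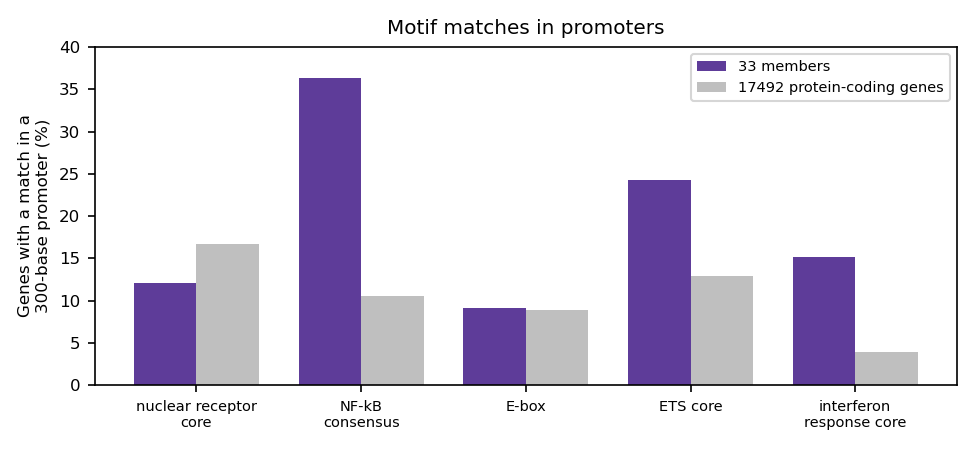
Percent of genes (y axis) with at least 1 match to each motif (x axis) in a 300-base promoter, for the 33 members with a listed start (purple) and the 17492 protein-coding genes with one (grey). NF-kB matches stand at 36.4% against 10.5%, and matches to AGGTCA (labelled nuclear receptor core) at 12.1% against 16.7%.

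Other genes of the pathway, 58 in number and listed apart from the members, were often marked in progenitors and hardly in stem cells. In MPP 38 and 34 of them had a gene-end peak (65.5% and 58.6%), close to the members' 70% and 67.5%. Over all genes it was 41.2% and 36%. In HSC only Tnip2, an A20-binding inhibitor, was marked (1.72%, below the 8.21% of all genes), at 4.94-fold there and 6.16-fold and 7.46-fold in the MPP libraries. Members and these genes together gave 7 of 98 in HSC (7.14%), which is near the share of all genes. Of the rest, Sarm1, a NAD-cleaving TIR-domain protein, had MPP folds of 9.23 and 10.7, Traf5 8.003 and 8.86, Ikbkg, the regulatory subunit of IKK, 6.46 and 8.60, and Zc3h12a, the RNase regnase-1, 7.11 and 7.34. Tlr5, Tlr8, Tbk1, Cxcl1, Ccl5 and Vcam1 were among the 16 of 58 with no gene-end peak in any library, against 51.4% of all genes.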

How the data were processed

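Peaks of RXRA CUT&RUN in 1 HSC and 2 MPP libraries were analysed, grouped by the labels' titles. Reads were mapped to mm10, and MACS2 2.1.4, Bowtie2 2.3.4.1, cutadapt 1.9.1 and Trim Galore 0.4.2 are the tools named, per the submitters' processing notes. What settings were used, and whether there was a control library, is not given in the sources used here. Each library has a deposited narrowPeak list with no header. The authors' deposited fold enrichment is a ratio. The deposited −log10 p and −log10 q were used as given, with a weakest q of 0.0995, 0.0971 and 0.0993, and the deposited score is 10 times −log10 q as a whole number and was not used.

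Read depth is not in these files, so each peak's pileup was recovered from its fold, (pileup + 1) / (background + 1), and its Poisson p. This gave whole pileups (within 0.001 in −log10 p) for 99.98%, 100% and 99.99% of peaks in HSC and progenitor replicates 1 and 2. Pileup intervals are exact Poisson (95%) and cover counting error only. The labels do not say that the MPP libraries came from separate pools of mice.

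Marked genes are those with a peak that overlapped, by at least 1 bp, the 1 kb around either end of their RefSeq span (GRCm38.p6). Peaks elsewhere in the span, and within 50 kb of it, were counted too. The window calls and the pileup solution were tested on simulated data, where 100% of 400 planted genes and 100% of 500 pileups were recovered. Members, roles and other lists were chosen with earlier results of these data known. All 40 members are accounted for. Of the other pathway genes those marked in HSC and the 4 best by the worse of their MPP ranks are named by rule, and genes with no peak were picked after their values were seen, as were neighbours at a shared peak. Python 3.11.15, numpy 2.4.6, scipy 1.17.1 and pandas 2.3.3 were used.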

Additional observations from a re-analysis of the deposited data

How the results depend on the processing

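Removing the 1% of peaks of highest fold changed no member's gene-end call, and placing the summit rather than any part of the peak in the window changed the call in 2 of 40 members, Myd88 and Rel. Windows of 500 bp changed 5 members and windows of 5 kb changed 8. With 5 kb, 8 members were marked in all 3 libraries in place of 4 (20% against 9.27% of all genes). With peaks of q at or below 1e-05, gene-end calls numbered 3 in HSC, 18 in progenitor replicate 1 and 17 in progenitor replicate 2, against 2%, 27.4% and 25.9% of all genes; 1 member was then marked in all 3 libraries (2.5% against 1.01%) and 8 in both progenitor libraries and not in HSC (20% against 16.3%). That filter also left 1 member with a peak elsewhere in the gene in HSC (2.5% against 1.44%) and 8 in progenitor replicate 2 (20% against 12.3%), and 6 with an HSC peak within 50 kb (15% against 11.2%). With each MPP list held to the 4047 peaks of highest fold, 6 members were marked at an end in progenitor replicate 1 and 7 in progenitor replicate 2 (15% and 17.5%, against 8.83% and 10.1% of all genes), 2 in all 3 libraries (Birc3 and Nfkbie, 5% against 1.44%) and 1 in both progenitor libraries and not in HSC (Ikbkb, 2.5% against 3.31%). Peaks elsewhere in the gene were then present in 2 and 3 members (5% and 7.5%, against 4.97% and 4.57%), and peaks within 50 kb in 18 and 18 (45% in each, against 36.5% in each). This setting changes the length of a list and its lowest fold together, and list length, depth, cell number and cell type cannot be told apart with 1 HSC library. Without 1 progenitor replicate, members marked in HSC and the other numbered 4 to 6 (against 6.16% and 7.57% of all genes), and those marked in the other and not in HSC 21 to 24 (against 28.4% and 35%). The other alternatives kept each count within 1.5 times. No paired analysis was possible because HSC has 1 library and no result comes from a test.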
